A study of Mus musculus with 19 samples.

Results

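The earliest interval after CAWS administration was examined in circulating leukocytes of DBA/2 mice, as the comparison of the 2 samples titled DBA/2 2 w with the 2 samples titled DBA/2 0 w. These 4 of the 18 RNA samples of the series were chosen by title alone, and no measured value entered the choice. CAWS, the water-soluble fraction of Candida albicans, is a complex of mannoprotein and β-glucan that induces vasculitis of the coronary arteries in mice. Male mice of 5 to 14 weeks of age were injected into the peritoneum on each of 5 days, with 0 or 1 mg of CAWS by the methods, and the labels of the arrays give no dose. The 0 w samples were taken right after the last of these injections, and the labels name no untreated group. DBA/2 mice lack complement component C5. The B6 samples used here for the difference between strains were 2 at 0 w and 1 at 2 w, also labelled by weeks after CAWS administration. RNA was isolated from whole blood on a filter that holds leukocytes and was hybridized to single-color whole-genome arrays, 1 sample to an array.

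Blood leukocytes meet fungal wall sugars through C-type lectins such as dectin-1 (Clec7a) and dectin-2 (Clec4n), which signal through Syk and Card9 and lead to cytokine production. Neutrophils, the short-lived phagocytes that leave the bone marrow in large numbers under inflammation, carry transcripts for S100 proteins, chemokine receptors and granule proteins that depend on their stage of maturation. Interferons act through STAT and IRF factors on a broad set of antiviral genes, whose promoters often hold the interferon-stimulated response element. B lymphocytes are known by Pax5, Cd79b and surface immunoglobulin, and present antigen on MHC class II. In RNA from mixed cells, fewer cells of a type and less RNA per cell cannot be told apart, and every change below may be either.

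On the 4 arrays, from 42.6% to 49.5% of the spots were well above background by the call of the scanner software, and both 2 w arrays had a higher share than both 0 w arrays. Across the probes used for scaling, Pearson's r was 0.989 between the 2 w samples and 0.988 between the 0 w samples. The labels of DBA/2 2 w replicate 2 are not clear, since its replicate field names both a second biological and a second technical replicate. Its difference from replicate 1 had an SD of 0.281 on the log2 scale, against 0.186 for the 2 arrays of 1 RNA of B6 0 w, and its r with B6 arrays did not exceed 0.962. It was kept as a sample. The p values rest on the spread within groups over all 18 samples. The DBA/2 2 w samples contribute to that spread, and their part may be technical. Samples of 1 replicate number shared a slide, so that each slide held 1 sample at 0 w and 1 at 2 w. None of the 4 Xist probes was well above background on these arrays, while 2 Y-linked genes were on all 4, and the labels give all mice as male.

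Values are given as scaled signals, in which each array was brought to a common 75th percentile and which have no absolute unit, and as log2 changes at 2 w against 0 w with the standard error (SE) of limma. A gene was called higher or lower where the limma p value, adjusted over all probes by the Benjamini-Hochberg method, was under 0.05. With 1 probe for each gene, 1317 of 16554 genes were higher (7.96%) and 1421 were lower (8.58%) at 2 w, and the median log2 change of all genes was -0.05. All counts of list members below are to be read beside these shares. The balance of directions depended on the scaling, since 1813 probes were higher (7.9%) and 1793 lower (7.82%) as reported, 2117 and 864 with the 75th percentile taken over all probes, and 2086 and 1064 with median scaling. Most changes were small, since 285 genes (1.72%) were both called and changed at least 2-fold, 207 of them upwards and 78 downwards. Among the 12276 genes well above background on all 4 arrays, 7 rose at least 4-fold and 0 fell as much. The changes measured on the 2 slides correlated across the 16154 probes that pass the background call on each of the 4 arrays with r = 0.773, which is across probes that share arrays and is a description only. Over all 22905 tested probes with values on both slides, r was 0.414. Of the 2738 genes called, 2737 changed in 1 direction on both slides. The call rests on the same values, so that this count is no separate support. The spread behind these tests was estimated over all 18 samples, and a fit to the 4 arrays alone called 0 probes by limma, with 5713 at an unadjusted p under 0.05. After normexp correction of the background, which leaves dim probes with smaller changes, 124 genes (0.749%) were called. It was 1052 (6.35%) once the DBA/2 9 w samples were left out of the estimate of the spread. Calls were also lost without smaller changes. The 23 platelet genes, all well above background on all 4 arrays, had a median of 0.59 as reported and 0.61 after normexp, with 20 and 0 higher.

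**Figure D1:**
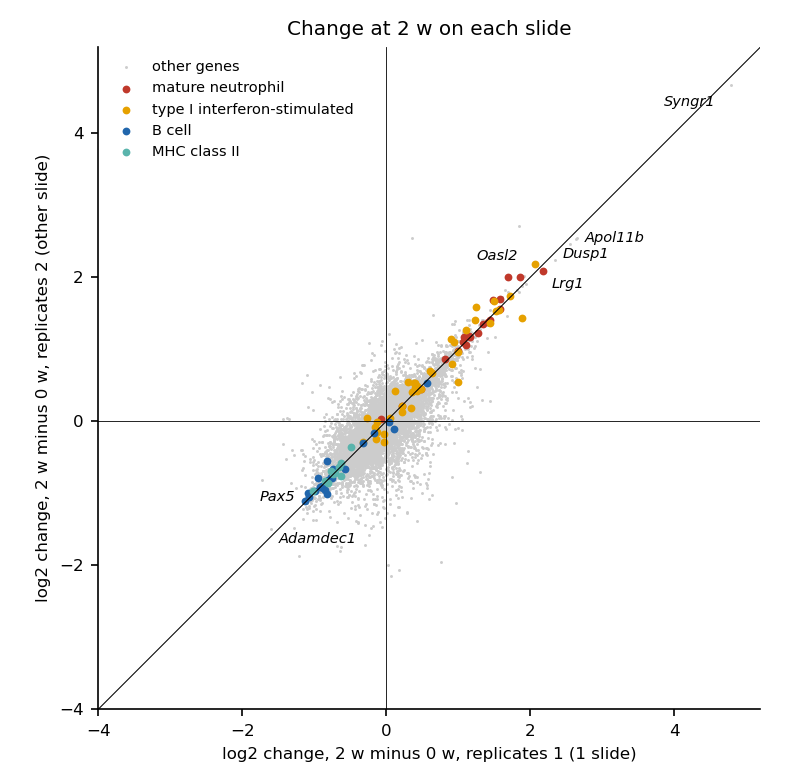
Each point is a gene well above background on all 4 arrays, with its log2 change at 2 w against 0 w in the replicates 1, which share a slide, on the x axis and in the replicates 2, which share another slide, on the y axis. Members of 4 gene lists are coloured, the diagonal marks equal changes, and r is 0.773 over probes that pass the background call on each of the 4 arrays.

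Transcripts of mature neutrophils rose together. Of 23 tested members of the list, 20 were higher, 0 were lower and 3 did not pass the test, against 7.96% of all genes higher. Their median log2 change was 1.25, with 1.28 on 1 slide and 1.18 on the other. S100a8, a subunit of calprotectin, had scaled signals of 2157 and 2082 at 0 w and of 5773 and 5389 at 2 w. S100a9, its partner, had signals of 36548 and 36261 at 0 w and of 99658 and 96583 at 2 w. The groups did not overlap for either gene, as for 56.7% of all genes, and the log2 changes were 1.40 (SE 0.07, adjusted p = 1.56e-05) and 1.43 (SE 0.11, adjusted p = 8.25e-05). Lrg1, a leucine-rich glycoprotein that neutrophils store in granules, gave the largest change in the list, with signals of 197 and 196 at 0 w and of 894 and 832 at 2 w. The log2 change of Lrg1 was 2.13 with a large SE of 0.43 (adjusted p = 0.0101), and its call was lost when any 1 of the 4 samples was left out. Il1r2, the decoy receptor for interleukin-1, rose from 32.0 and 31.5 to 116 and 126, a log2 change of 1.93 (SE 0.10, adjusted p = 1.56e-05). Stfa2l1, a stefin that inhibits cysteine proteases, rose from 46.8 and 36.8 to 152 and 148, and its near-identical relatives on the array may share its signal. Stfa2 was not well above background on either 0 w array and rose at least 2.61-fold by 2 w (adjusted p = 9.39e-05). The receptors that guide and sustain neutrophils rose as well. Cxcr2, for CXC chemokines, had signals of 350 and 326 at 0 w and of 888 and 834 at 2 w (adjusted p = 0.000109). Csf3r, for granulocyte colony-stimulating factor, had 267 and 243 at 0 w and 647 and 567 at 2 w (adjusted p = 0.000746). After normexp, 11 of the 23 members were called higher, and 16 with the DBA/2 9 w samples left out.

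Granule transcripts were taken by the granule that they fill. Of 14 tested genes of specific and gelatinase granules, which neutrophils make late in maturation, 11 were higher and 1 was lower, with a median log2 change of 0.94. Mmp8, neutrophil collagenase, had signals of 117 and 109 at 0 w and of 420 and 378 at 2 w, a log2 change of 1.82 (SE 0.12, adjusted p = 3.84e-05). Anxa1, a phospholipid-binding protein of gelatinase granules, rose from 424 and 358 to 1050 and 895. Lcn2, which withholds iron-laden siderophores from microbes, was on none of the 0 w arrays well above background and stood at 54.1 and 54.2 at 2 w, at least 3.95-fold higher (adjusted p = 0.00131). Cd177, a surface protein of neutrophils, was at least 1.39-fold higher (adjusted p = 0.019), and lost its call when any 1 of the 4 samples was left out. The member that fell was Cybb, the membrane subunit of the phagocyte oxidase, which other phagocytes and B cells also express, from 253 and 263 to 190 and 182. Of 5 tested genes of azurophil granules, which are made at the promyelocyte stage, 1 was higher and 4 did not pass, and 3 of the 5 were well above background on all 4 arrays. The difference between these lists was not tested. That gene was Hp, haptoglobin, which leukocytes of the granulocyte line also store in specific granules, with signals of 1241 and 1177 at 0 w and of 3360 and 3157 at 2 w. Ctsg, cathepsin G, had 76.7 and 100 at 0 w and 72.4 and 105 at 2 w, with overlapping groups (adjusted p = 0.996). Mpo, myeloperoxidase, stood at 16.1 and 28.8 at 0 w and at 17.4 and 21.7 at 2 w, with overlapping groups.

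**Figure D2:**
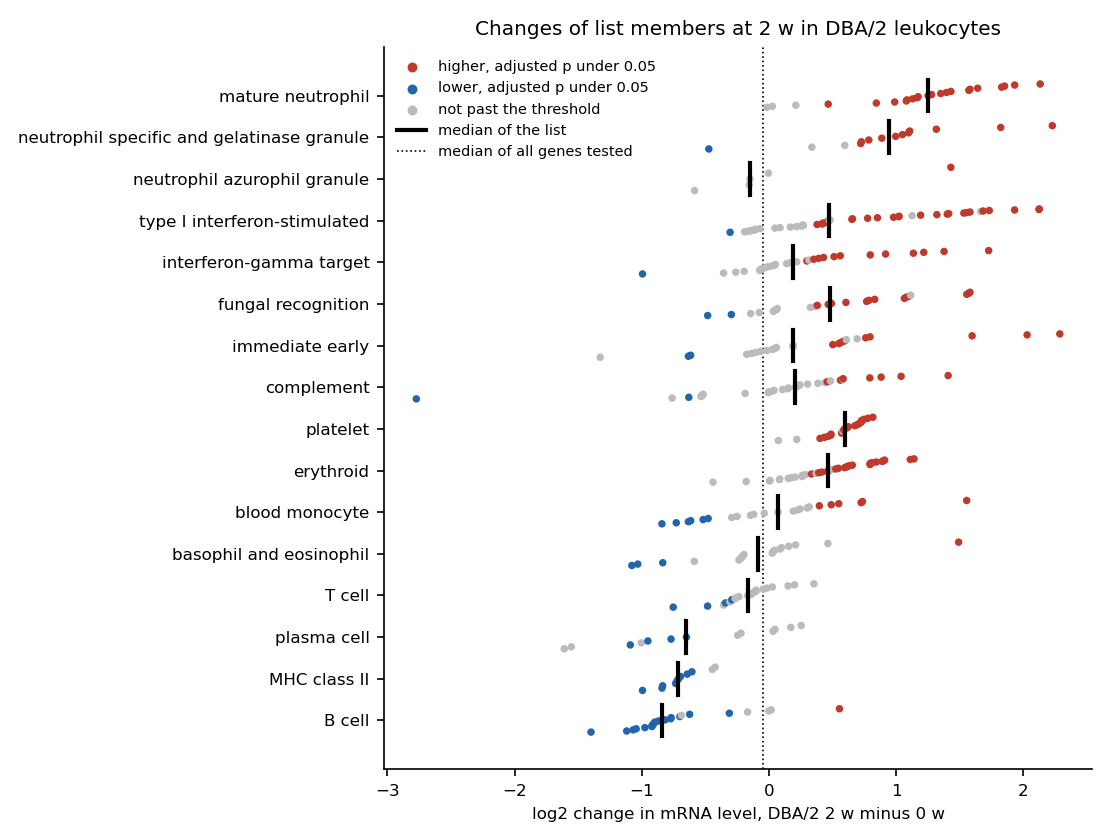
Each point is a tested member of a gene list, with its log2 change at 2 w against 0 w in DBA/2 mice on the x axis, coloured by whether the adjusted p of limma was under 0.05. Black bars are the medians of the lists, from 1.25 for mature neutrophils to -0.84 for B cells, and the dotted line is the median of all genes tested, -0.05.

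The genes with the largest rises that were well above background on all 4 arrays were of several kinds. The largest was Syngr1, synaptogyrin 1, a membrane protein of small vesicles, which stood at 70.5 and 78.8 at 0 w and at 1942 and 2014 at 2 w. Its log2 change was 4.73 (SE 0.10, adjusted p = 4.85e-08), or 26.5-fold, and a second, dimmer probe of the gene changed by 4.33. The files place its main probe at chr15:79940606-79940665 of the mm8 build. In the later samples of DBA/2 mice Syngr1 had signals of 70.0 and 80.6 (4 w), 888 and 916 (8 w) and 77.0 and 80.9 (9 w), and in the B6 samples it lay between 783 and 1728 throughout. Of 42 other genes tested within 1 Mb of it, 1 was higher and 3 were lower at 2 w, and the 33 of them well above background on all 4 arrays changed by -0.73 to 0.40. It was followed by 3 apolipoprotein L genes of chromosome 15, relatives of the apolipoproteins that act on membranes of cells and parasites. Apol11b rose from 3135 and 2836 to 19657 and 16639, Apol10b from 1988 and 1529 to 12390 and 8870, and Apol10a from 133 and 146 to 785 and 805. Their log2 changes were 2.60 (SE 0.12), 2.59 (SE 0.23) and 2.51 (SE 0.07), and these near-identical genes may share signal between their probes. Dusp1, a phosphatase that turns off MAP kinases, rose from 202 and 216 to 1019 and 1016, a log2 change of 2.29 (SE 0.07, adjusted p = 4.06e-07). Wfdc17, a small protein of the whey acidic protein family, rose by 1.92 and Cstdc4, another stefin, by 1.88. Among the 12 largest rises, Lrg1 was the one that lost its call when 1 sample was left out. Among genes that were well above background on both 2 w arrays and neither 0 w array, the largest bounds after Lcn2 were for Tmem178, at least 3.08-fold higher, Il1f9, an interleukin-1 family cytokine now called IL-36γ, at least 2.69-fold higher, and Oscp1, at least 2.62-fold higher, whose call was lost when any 1 sample was left out.

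**Figure D3:**
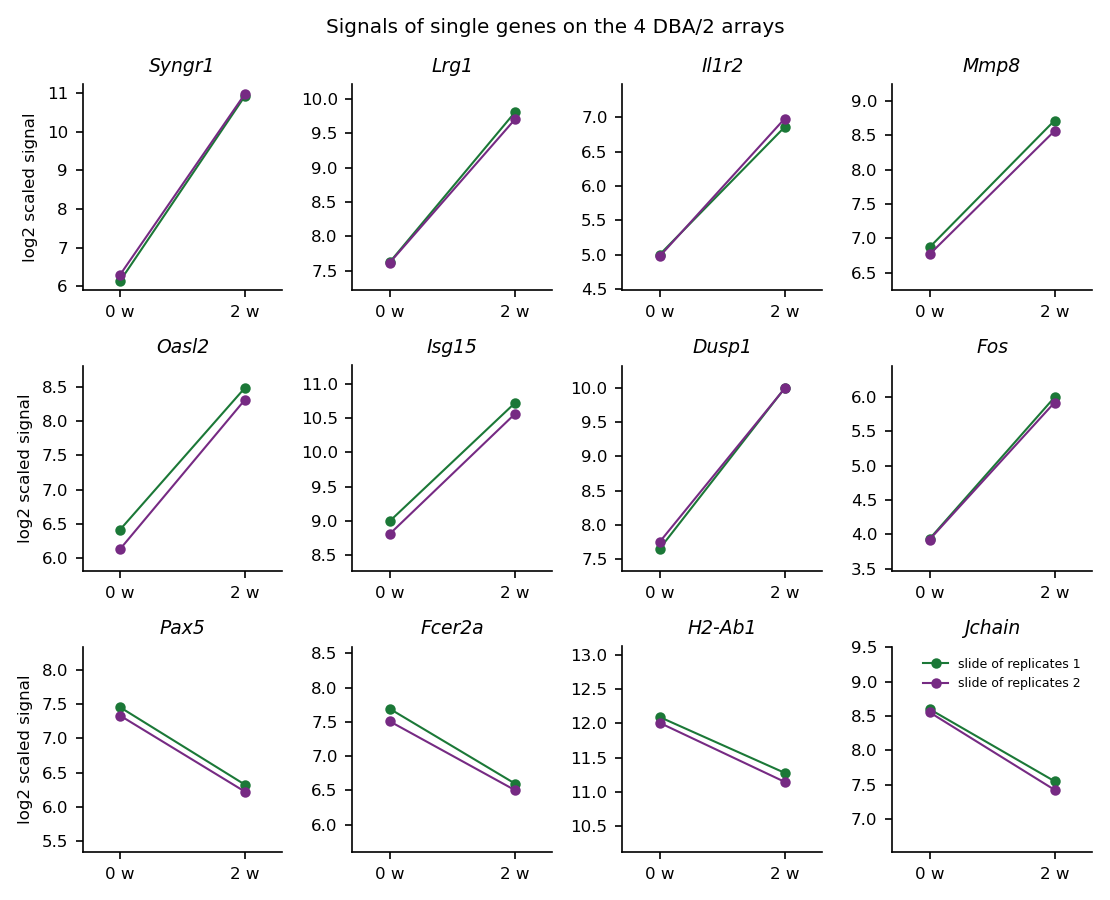
Each panel shows 1 gene, with its log2 scaled signal on each of the 4 arrays of DBA/2 mice and a line between the 0 w and 2 w samples that share a slide. In each of the 12 panels both 2 w samples lie on the same side of both 0 w samples. They lie above them for Syngr1, Lrg1, Il1r2, Mmp8, Oasl2, Isg15, Dusp1 and Fos and below them for Pax5, Fcer2a, H2-Ab1 and Jchain. The same holds for 56.7% of all genes. It was a condition of the choice of Syngr1, Lrg1, Il1r2, Mmp8, Oasl2, Dusp1 and Pax5 as largest changes.

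Interferon-stimulated genes were raised already at 2 w. Of 46 tested members of the type I list, 27 were higher, 1 was lower (Ly6e, a surface protein) and 18 did not pass, and the median log2 change was 0.47, with 0.54 and 0.53 on the 2 slides. Oasl2, a relative of the oligoadenylate synthetases, had signals of 85.5 and 70.3 at 0 w and of 359 and 318 at 2 w, a log2 change of 2.12 (SE 0.13, adjusted p = 2.96e-05). Isg15, the ubiquitin-like protein that is joined to other proteins under interferon, had 512 and 450 at 0 w and 1683 and 1508 at 2 w, a log2 change of 1.73 (SE 0.09, adjusted p = 1.56e-05). The files place its probe on chromosome 17, while the gene lies on chromosome 4. Ifit3, which binds viral RNA together with Ifit1, rose from 75.2 and 58.5 to 212 and 185, and its close relative Ifit3b was at least 2.24-fold higher. Oas3 was well above background on 1 of the 0 w arrays and both 2 w arrays, with 22.1 and 4.01 at 0 w and 36.9 and 45.7 at 2 w, and lost its call when either 2 w sample was left out or the slide was a term in the fit. Irf7, the factor that sustains type I interferon production, rose from 41.0 and 36.4 to 88.8 and 87.9 (adjusted p = 0.000102). Other factors of the pathway had smaller changes. Irf1 had 954 and 868 at 0 w and 1210 and 1116 at 2 w, with a log2 change of 0.35 (SE 0.10, adjusted p = 0.0445), and lost its call when any 1 sample was left out. Irf9 had an outlier spot on 1 of the 0 w arrays and changed by 0.09 (SE 0.17) in the 3 samples left. After normexp, 4 of the 46 members were called higher, and 16 with the DBA/2 9 w samples left out.

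The interferon-stimulated response element was looked up in the RefSeq promoter windows of the GRCm38.p6 build, which run from 250 bases before to 50 bases after a start site. The letters GAAANNGAAA, on either strand and counting overlapping matches, stood in the windows of 16 of the 33 tested members of the type I list that had a window (48.5%), against 3.99% of the 27025 genes in the table. The members that rose held them in 9 of 21 genes (42.9%) and the other tested members in 7 of 12 (58.3%), so that the letters did not separate the members that rose from those that did not. None of the 21 genes of the mature neutrophil list with a window held them. They stood in 10 of 21 tested interferon-γ targets with a window (47.6%) and in 2 of 15 B cell genes (13.3%), so that they were not particular to the type I list. Windows around the match are shown for 3 members of the type I list that rose, in the direction of the gene, with the matched letters in capitals. That of Isg15, at chr4:156200874-156200897 on the minus strand, holds 3 overlapping matches, of which the middle one is in capitals. Those of Ifit3, at chr19:34583400-34583423, and Ifit1, at chr19:34640797-34640820, both on the plus strand, hold the letters on the opposite strand.
Isg15: ggaaaagGAAACCGAAAcagaaaa
Ifit3: aagtctgTTTCAGTTTCtactttc
Ifit1: gtctcagTTTCAGTTTCtcactgc

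Of 28 tested targets of interferon-γ, 12 were higher (42.9%, against 7.96% of all genes) and 1 was lower, with a median log2 change of 0.19. After normexp, 2 were called higher and 1 lower, and 6 and 1 with the DBA/2 9 w samples left out. Gbp2, a guanylate-binding GTPase, rose from 157 and 144 to 399 and 382 (log2 change 1.38, SE 0.12, adjusted p = 0.000166), and Serpina3g, a serine protease inhibitor of activated leukocytes, from 175 and 168 to 406 and 391. Gbp6 was not well above background at 0 w and was at least 1.36-fold higher at 2 w, with its call lost when any sample but 0 w replicate 1 was left out. The member that fell was Ciita, the coactivator that drives MHC class II genes. Ifng itself had 36.1 and 31.4 at 0 w and 39.6 and 36.0 at 2 w, with overlapping groups and a log2 change of 0.17 (SE 0.12, adjusted p = 0.457). In contrast to 2 w, its change against 0 w was 1.79 at 4 w and 1.49 at 8 w, from the same 0 w samples.

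B cell transcripts fell. Of 22 tested members of the list, 17 were lower, 1 was higher (Cd24a, which neutrophils and red cells also express) and 4 did not pass, against 8.58% of all genes lower, and the median log2 change was -0.84, with -0.82 and -0.80 on the 2 slides. Cd79b, a signalling chain of the antigen receptor, had signals of 6692 and 6171 at 0 w and of 3382 and 3158 at 2 w, a log2 change of -0.98 (SE 0.09, adjusted p = 0.000183). Ms4a1, which encodes CD20, went from 3281 and 3083 to 1869 and 1746. Ighm, the μ heavy chain, went from 13866 and 13459 to 7533 and 7068. The members with the largest falls well above background on all 4 arrays were Pax5, the factor that fixes B cell identity, Fcrla, an intracellular Fc receptor-like protein, and Fcer2a, the low-affinity IgE receptor. Pax5 had 175 and 161 at 0 w and 80.1 and 74.7 at 2 w, with a log2 change of -1.12 (SE 0.26, adjusted p = 0.0179), and lost its call when any 1 sample was left out. Fcrla had 823 and 832 at 0 w and 390 and 400 at 2 w, a log2 change of -1.07 (SE 0.08, adjusted p = 8.76e-05). Blk, a kinase of the antigen receptor, was not well above background at 2 w and was at least 2.64-fold lower, with its call lost under the same conditions as that of Pax5 and when the slide was a term. Cd79a, the other signalling chain, had 69.7 and 91.3 at 0 w and 71.8 and 90.7 at 2 w by its dim probe and did not pass the test.

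MHC class II genes fell. Of 11 tested MHC class II genes, 9 were lower, 0 were higher and 2 did not pass, with a median log2 change of -0.71. H2-Ab1, a β chain, had 4366 and 4117 at 0 w and 2485 and 2269 at 2 w, a change of -0.84 (SE 0.09, adjusted p = 0.000359). Ciita had 714 and 636 at 0 w and 353 and 324 at 2 w, a change of -0.99 (SE 0.10, adjusted p = 0.00039). H2-Aa and H2-DMb2 changed by -0.73 and -0.84. In each of the 4 fits with 1 sample left out, 9 members were lower. Of 13 plasma cell genes 9 did not pass and 4 were lower, among them Jchain, which joins polymeric immunoglobulin, from 388 and 376 to 187 and 172, while Xbp1, a factor of secretory cells, had 62.7 and 62.7 at 0 w and 73.4 and 76.1 at 2 w and did not pass. After normexp, 3 B cell and 2 MHC class II members were called lower, and 15 and 9 with the DBA/2 9 w samples left out.

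Among the 12 largest falls over all genes were Pax5 and 2 immunoglobulin names, Igh and Igkv19-93. Igh, an immunoglobulin heavy chain name, had signals of 9062 and 9051 at 0 w and of 4212 and 4105 at 2 w, a log2 change of -1.12 (SE 0.08, adjusted p = 7.32e-05), and its other 6 tested probes changed by -1.15 to -0.49. The largest fall was that of Adamdec1, a metalloprotease of macrophages and dendritic cells, from 66.0 and 53.9 to 21.7 and 19.2, a log2 change of -1.55 (SE 0.33, adjusted p = 0.0118), which lost its call when either 0 w replicate 1 or 2 w replicate 2 was left out. Id3, an inhibitor of E proteins in lymphocytes, fell from 118 and 119 to 58.3 and 50.3, a change of -1.13 (SE 0.11, adjusted p = 0.000286). Cpm, a carboxypeptidase of the cell surface, fell by 1.15 on the log2 scale and Mcoln2, an ion channel of endosomes, by 1.19. Ten1, a subunit of the telomere-binding CST complex, fell by 1.38 and B3gnt8, a glycosyltransferase, by 1.10. Chtf18, a subunit of a clamp loader, and Pcgf6, a polycomb protein, fell by 1.22 and 1.16 with SE of 0.32 and 0.28, and both lost their calls when the slide was a term. Without 1 sample, Pcgf6 lost its call in each of the 4 fits, Chtf18 in all but that without 0 w replicate 1, and Igkv19-93 in those without either replicate 2. Ear10, an eosinophil-associated ribonuclease, fell by 1.14. Among genes well above background at 0 w and not at 2 w, the bounds were at least 2.95-fold lower for Smyd5, at least 2.78-fold for Patz1 and at least 2.52-fold for Glra2, and none of these calls held in all 4 fits with 1 sample left out. Patz1 also lost its call when the slide was a term.

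T cell transcripts changed less than those of B cells. Of 23 tested T cell genes, 4 were lower and 0 were higher, with a median log2 change of -0.17. Bcl11b, a factor of T cell commitment, went from 238 and 226 to 142 and 133, a change of -0.75 (SE 0.08, adjusted p = 0.000378). Tcf7, another T cell factor, changed by -0.48, and the surface proteins Cd5 and Cd6 by -0.34 and -0.29. Cd6 lost its call when any 1 sample was left out, Tcf7 when any but 2 w replicate 1 was, and Cd5 without 2 w replicate 1. The defining gene Cd3e had 164 and 241 at 0 w and 181 and 289 at 2 w, with overlapping groups and a change of 0.20 (SE 0.28). Cd8a changed by -0.24 (SE 0.16, adjusted p = 0.432), and Cd4 was on neither 0 w array well above background. Of 14 genes of naive and recirculating lymphocytes, which T and B cells share, 8 were lower and 1 was higher. S1pr1, the receptor by which lymphocytes leave lymph nodes, went from 236 and 236 to 141 and 129, and Bach2, a repressor of effector fate, from 577 and 576 to 387 and 368. Of 21 NK receptor genes 5 were higher and 0 lower, led by the signalling chains Fcer1g (0.83) and Tyrobp (0.76), which myeloid cells also express. Ncr1, which defines NK cells, had 120 and 99.0 at 0 w and 131 and 111 at 2 w, a change of 0.15 (SE 0.14, adjusted p = 0.576).

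Monocyte genes went both ways. Of 23 tested members 6 were higher and 6 were lower, with a median log2 change of 0.07. After normexp, 0 were called higher and 0 lower, and 3 and 3 with the DBA/2 9 w samples left out. Cd14, the coreceptor for lipopolysaccharide, rose from 16.9 and 18.3 to 49.9 and 53.7, a change of 1.55 (SE 0.14, adjusted p = 0.000172), and F13a1, coagulation factor XIII, which platelets also carry, from 2770 and 2598 to 4680 and 4260. Ly6c1, from 735 and 701 to 1205 and 1168, also rose. Cx3cr1, the fractalkine receptor, and Adgre4, which are high in patrolling monocytes, changed by -0.84 (SE 0.15) and -0.73 (SE 0.10). Nr4a1, the factor on which those monocytes depend, went from 900 and 841 to 586 and 550 (adjusted p = 0.00088). Csf1r, the receptor that all monocytes use, had 90.5 and 86.6 at 0 w and 103 and 99.5 at 2 w, a change of 0.19 (SE 0.13, adjusted p = 0.402). Of 14 dendritic cell genes 5 were lower and 1 was higher, with Spib, a factor of plasmacytoid dendritic cells and B cells, at -0.92 (SE 0.07). Of 18 basophil and eosinophil genes 1 was higher and 3 were lower. The gene that rose was Hdc, which makes histamine and is also expressed by neutrophils, from 123 and 102 to 333 and 296. Ear1 and Ear6, eosinophil ribonucleases that are near-identical, changed by -1.08 and -1.03, and Ccr3, the eotaxin receptor, by -0.84. Ear6 lost its call when any 1 sample was left out, and Ccr3 when any but 2 w replicate 1 was.

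Genes by which leukocytes sense fungi rose in part. Of 24 tested members of the list, 13 were higher and 2 were lower, with a median log2 change of 0.48. After normexp, 4 were called higher and 0 lower, and 8 and 0 with the DBA/2 9 w samples left out. Some members, among them Clec4e, Il1b and Cd14, also belong to the neutrophil or monocyte lists. Clec7a, dectin-1, had 814 and 792 at 0 w and 1695 and 1697 at 2 w, a change of 1.08 (SE 0.08, adjusted p = 7.08e-05). Clec4n, dectin-2, had 11.2 and 7.0 at 0 w, not well above background, and 21.7 and 17.0 at 2 w, and its change did not pass the test (adjusted p = 0.324). Clec4e, mincle, rose from 53.1 and 46.5 to 148 and 149 (change 1.58, SE 0.11), and Il1b, a product of the pathway, from 792 and 752 to 2373 and 2218 (change 1.57, SE 0.08, adjusted p = 1.56e-05). Of 36 cytokine and chemokine genes, 5 were higher and 2 lower. Il1rn, the interleukin-1 receptor antagonist, rose from 30.3 and 22.7 to 65.8 and 59.9, and Ccl4, a chemokine for monocytes, went from 87.0 and 109 to 65.7 and 68.0, with its call lost when any sample but 0 w replicate 1 was left out.

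Of 31 tested complement genes, 7 were higher and 2 were lower, with a median log2 change of 0.21. After normexp, 0 were called higher and 0 lower, and 3 and 0 with the DBA/2 9 w samples left out. C3 had signals of 387 and 388 at 0 w and of 675 and 668 at 2 w, a log2 change of 0.79 (SE 0.07, adjusted p = 0.000163). Cfb, factor B of the alternative pathway, was not well above background at 0 w and was at least 1.89-fold higher at 2 w, with signals of 25.4 and 23.3. Fcna, ficolin A, rose by 1.04 (SE 0.30, adjusted p = 0.0448) from signals near background and lost its call when any sample but 0 w replicate 1 was left out or the slide was a term. C4b had 47.0 and 47.5 at 0 w and 73.1 and 68.5 at 2 w, with groups that did not overlap and a change that did not pass the test (0.58, SE 0.28, adjusted p = 0.228). Mbl2, mannose-binding lectin of the liver, had 13.6 and 20.8 at 0 w, 1 of them well above background, and 2.16 and 2.79 at 2 w, neither of them. Of 17 acute phase genes 4 were higher, led by Saa3, a serum amyloid A that macrophages make, from 25.3 and 19.7 to 598 and 611. Its log2 change of 4.76 (SE 0.48, adjusted p = 0.000328) starts from a level that was well above background on 1 of the 0 w arrays. The others were Lcn2, Hp and Serpina3g, which were already counted in the granule and interferon-γ lists. Cebpb, a factor that drives acute phase and myeloid genes, rose by 0.82 (SE 0.12, adjusted p = 0.00178).

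Of 25 immediate early genes, the list that holds Dusp1, 10 were higher, 2 were lower and 13 did not pass, with a median log2 change of 0.19. Fos, a subunit of AP-1, had 15.3 and 15.2 at 0 w and 63.9 and 60.6 at 2 w, a change of 2.03 (SE 0.09, adjusted p = 7.73e-06), although it was well above background on only 1 of the 0 w arrays. Atf3, a stress-induced repressor, changed by 1.60 (SE 0.16), and Jund, another AP-1 subunit, by 0.79 (SE 0.07). Of 22 heat shock genes 6 were higher, 2 were lower and 14 did not pass, with Hspa1a at least 1.83-fold higher and Hsph1 and Dnaja1 both higher by 0.62. Without 2 w replicate 2 Hspa1a lost its call. Of 15 genes of matrix proteases and their inhibitors, 7 were higher, 1 was lower (Serpinb1a, -0.57) and 7 did not pass. Among those higher were Mmp9, gelatinase B, from 52.3 and 48.8 to 114 and 103, and Adam8 from 592 and 552 to 1164 and 1119. Mmp8, Mmp9 and Adam8 are also members of the specific and gelatinase granule list.

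Transcripts of platelets and red cells, which are not leukocytes, were present on all 4 arrays and rose too. Of 23 platelet genes 20 were higher and 0 lower, with a median log2 change of 0.59, and their summed signal was 293853 to 313470 at 0 w and 420267 to 453531 at 2 w. Ppbp, the platelet basic protein, rose by 0.59 and Pf4, platelet factor 4, by 0.40. Pf4 lost its call when any sample but 0 w replicate 1 was left out, and both lost it with quantile normalization, under which 13 platelet genes were higher. Of 38 erythroid genes 23 were higher and 0 lower, with a median of 0.47, and the summed signals were 2380097 and 2197524 at 0 w and 2948603 and 2851059 at 2 w. Ank1, ankyrin of the red cell membrane, rose by 1.14 (SE 0.07), and Epb42, another protein of that membrane, by 1.11 (SE 0.10). Hba-a1 and Hbb-bt were saturated on 3 and 4 of the arrays, and neither they nor Alas2, the erythroid enzyme of heme synthesis, passed the test. Of 15 genes of ubiquitin and autophagy in maturing red cells 12 were higher, with a median of 0.67. Of 24 hepatocyte genes 2 were higher (8.33%), near the 7.96% of all genes. These were Serpina1d, by 0.77 (SE 0.13, adjusted p = 0.00486), and Fabp1, at least 1.79-fold. Alb had 25.0 and 44.8 at 0 w and 28.3 and 25.1 at 2 w. No array of the 4 showed Apoa1 or Ttr well above background. Of 14 tissue macrophage genes 4 were higher and 1 lower, led by Slc40a1, the iron exporter, by 1.32, while C1qa had 36.3 and 16.4 at 0 w and 28.7 and 25.6 at 2 w. The part that these cells had in the other changes was not tested. Platelet and erythroid genes rose on both slides, by medians of 0.63 and 0.60 and of 0.46 and 0.47.

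Ribosomal protein and oxidative phosphorylation genes shifted little in the median. Of 81 ribosomal protein genes 15 were lower and 1 was higher, with a median log2 change of -0.17, but 0 were lower with either of the other percentile scalings (medians -0.07 and -0.09) and 27 with quantile normalization. Of 77 genes of oxidative phosphorylation 12 were lower and 5 higher, with a median of -0.07 that turned to 0.02 with the 75th percentile over all probes. Of 42 cell cycle genes 4 were lower (9.52%) and 3 higher (7.14%), near the shares of all genes. The 3 higher included Nusap1 at 1.00 (SE 0.10) and Ccna2 at 0.95 (SE 0.08). Of 23 glycolysis genes 8 were higher (34.8%, against 7.96% of all genes), with a median of 0.17. Among them was Bpgm, which red cells use to make bisphosphoglycerate, and 1 was lower, the enolase Eno3, by -0.81. Of 16 MHC class I genes 3 were higher, led by B2m from 11969 and 11864 to 19917 and 20152, a change of 0.75 (SE 0.08, adjusted p = 0.000464), but its other 2 probes changed by -0.12 and 0.77. The pan-leukocyte gene Ptprc, CD45, had 3784 and 3820 at 0 w and 3754 and 3709 at 2 w, a change of -0.03 (SE 0.07, adjusted p = 0.900).

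The change at 2 w was set against that in B6 mice, in which the sample at 2 w is alone and is assumed to vary as the others do. The difference between strains passed the test for 2698 of 16550 genes (16.3%), 1401 of them (8.47%) with the higher change in DBA/2 mice and 1297 (7.84%) with the lower. In B6 mice the hepatocyte and platelet lists changed from 0 w to 2 w by medians of -5.21 and -1.41, and the change was higher in DBA/2 mice by the test of the difference for 22 of 24 hepatocyte and 22 of 23 platelet genes. In DBA/2 mice the medians of these lists were 0.0008 and 0.59, so that the hepatocyte difference lay in the fall in B6 mice. Mbl2, a liver transcript, had signals of 292 and 288 in the B6 0 w samples and of 6.16 in the B6 2 w sample. The part of these B6 changes in other differences was not tested. For the B cell list, 15 of 22 members had a lower change in DBA/2 mice, with a median change in B6 mice of 0.34, and all 9 MHC class II genes that fell in DBA/2 mice are among the 9 with a difference. For Cd79b the difference was -1.38 (adjusted p = 0.000144) and for Ms4a1 -1.50 (adjusted p = 6.78e-05). Of the mature neutrophil genes 13 were higher and 1 was lower in B6 mice, with a median of 0.81, and 6 of 23 had a higher change in DBA/2 mice and 1 a lower. For S100a8 the difference was -0.29 (adjusted p = 0.135) and for Cxcr2 0.14 (adjusted p = 0.715). Of the 46 interferon-stimulated genes 10 had a higher change in DBA/2 mice and 1 a lower, with a median change in B6 mice of 0.35.

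The later weeks were compared with the same 0 w samples, so that their changes are not independent of those at 2 w and are given side by side only. The DBA/2 9 w samples lay on other slides than all other DBA/2 samples, so that week and slide cannot be told apart at 9 w. Replicate 2 at 9 w also had 1187 outlier spots, against at most 180 on any other array. The median log2 change of the mature neutrophil list was 1.25 (2 w), 1.59 (4 w), 2.41 (8 w) and 1.49 (9 w). For the type I interferon list these medians were 0.47, 0.95, 1.20 and 0.85. For the B cell list they were -0.84, -0.33, -0.70 and -0.90, and for MHC class II -0.71, -0.23, -0.14 and -0.77. Erythroid genes had medians of 0.47, -0.09, 0.12 and 0.74, so that the 2 w and 9 w values lay above those of 4 w and 8 w. Dusp1 was highest at 2 w, at 2.29, with 1.85, 1.38 and 1.24 afterwards. C3 was 0.79 at 2 w and 1.79 at 4 w.

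**Figure D4:**
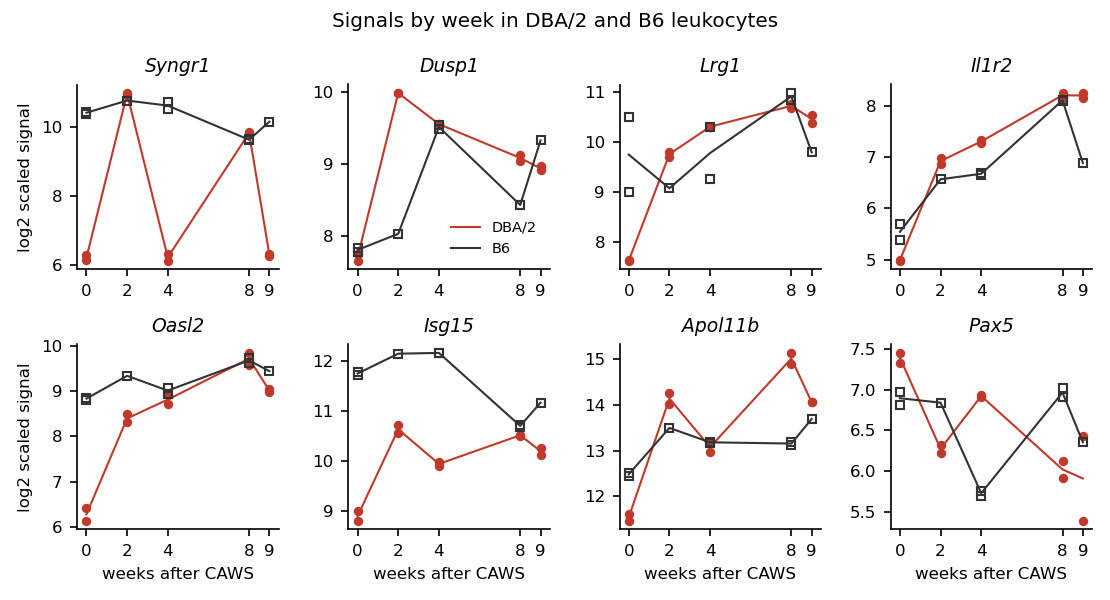
Each panel shows 1 gene, with the log2 scaled signal of every sample by weeks after CAWS administration in DBA/2 mice (filled red circles) and B6 mice (open squares), and lines through the means of the groups. Syngr1 in DBA/2 mice was above every B6 sample at 2 w, within their range of 783 to 1728 at 8 w and below it at 0 w, 4 w and 9 w, while Il1r2 and Oasl2 were higher at every later week than at 0 w.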

How the data were processed

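Leukocyte RNA of 18 samples in 10 groups was measured on 19 single-color Agilent whole mouse genome arrays. The authors scanned the arrays with Agilent Feature Extraction (9.5.3.1 per the labels), and the deposited intensity of each spot is its processed signal, background-subtracted and not scaled between arrays. Control spots and outlier spots were left out, spots of a probe averaged, and log2 intensities scaled by the 75th percentile over the 11536 probes that pass the background call on each array. The 2 arrays of B6 0 w replicate 2 were averaged. A mean per group was fitted with limma (3.58.1, R 4.3.3) over the 18 samples, with 8 residual degrees of freedom, to the 22939 probes of 41174 well above background in at least 2 samples. Adjusted p values are those of Benjamini and Hochberg, and 0.05 was the threshold. A gene was represented by its tested probe with the highest mean signal. The number of arrays limits the precision. On simulated data, 45 of 100 probes changed 2-fold and 74 of 100 changed 4-fold were recovered among 22939, with 5 false calls. The simulated errors were independent between samples, unlike those of samples that shared a slide. Only 200 probes were changed, against 3606 called in the data, so that these shares need not hold for the data.

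Where no array of a group shows a probe well above background, the fold is a bound against the lowest signal of probes well above background on each array, or the probe's own where higher. Named genes were the 12 largest rises and falls well above background on all 4 arrays with groups that did not overlap, the 4 largest bounds in each direction, the leading members of the lists, defining markers, and genes that the study turns on. Other list members named in the text, Ifit1 among them, were chosen after their values were seen. The members and lists were chosen with earlier results of these data known. Lists share members, so that their counts are not separate results. Same-numbered 0 w and 2 w samples deviated from their group means together (r = 0.81 across probes, 2 pairs), and they shared a slide by the file headers, so that the number was also tried as a block. Alternatives changed the scaling, background correction, filter, samples, probe choice and slide. The deposited value table of the authors was used as an alternative only. Results for some named genes are not reported here.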

Additional observations from a re-analysis of the deposited data

Results flagged for a closer look

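For 21 of the 36 genes named by size of change or by the study's own questions, the change at 2 w differed between DBA/2 and B6 mice by the limma test of the difference. In 14 of these 21 the change was higher in DBA/2 mice. Over all genes tested, the difference passed for 16.3%. Genes named by size were chosen by their DBA/2 change, which enters this difference, so that their count is no test. Each value is the DBA/2 log2 change minus the B6 log2 change, where 2 w is 1 sample, and the cause was not tested.

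Among the rises, the difference was 4.38 for Syngr1 (adjusted p = 1.56e-06), 2.81 for Lrg1 (adjusted p = 0.0231), 2.06 for Dusp1 (adjusted p = 7.59e-06), 1.62 for Oasl2 and 0.91 for Il1r2. It was 1.59 for Apol11b, 1.43 for Apol10a and 1.35 for Apol10b, which rose in B6 mice by 1.01, 1.08 and 1.23 as well.

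Complement genes gave 4.37 for Cfb, 2.87 for C3, 2.72 for Fcna and 1.62 for C4b. In these, the change in B6 mice was -2.97, -2.08, -1.68 and -1.03, beside a median of -5.21 for the hepatocyte list there. The factors Irf7 and Cebpb gave 1.26 (adjusted p = 0.000392) and 0.69 (adjusted p = 0.0333).

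Among the falls, the difference was -1.90 for Igkv19-93, -1.70 for Ten1, -1.49 for Ear10, -1.48 for Cpm, -1.45 for Mcoln2, -1.27 for Id3 and -1.18 for B3gnt8. Each of these 7 had a change above 0 in B6 mice, from 0.09 for B3gnt8 to 0.73 for Igkv19-93. The median change of all genes in B6 mice was 0.08. With 1 sample at 2 w, a rise of these genes in B6 mice is not shown.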

How the results depend on the processing

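The number of probes called at 2 w, 3606 as reported, depended most on the background correction and on the samples that give the spread. It was 1217 with no filter on dim probes (839 higher, 378 lower), 2109 in DBA/2 arrays only (869 lower), 5975 with slide as a random block (3428 lower), and 0 with the 4 arrays only, with or without a replicate block (0 higher, 0 lower). After normexp it was 147 (127 higher, 20 lower), without the 9 w samples 1297 (960 and 337), and with slide as a fixed term 1 (1 and 0). A threshold of 2-fold with no test gave 1115 (553 and 562). Probes lower numbered 864 with the 75th percentile over all probes, 1064 with median scaling and 2697 with slide as a fixed term. The replicate block gave 2262 higher and 2755 lower, and changed none of the 164 calls of named genes. Leaving out 1 of the 4 samples gave 1806 to 2088 probes, 1024 to 1362 higher and 538 to 946 lower, and ended 37 to 52 of those 164 calls.

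The strain difference, 3500 probes, fell to 1689 with no filter, 367 with normexp, 1154 with normexp without the 9 w samples and 0 with normexp and slide, and was 5614 with slide as a random block.

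Of the lists, all 6 counts were 0 with the 4 arrays only, with or without the replicate block, and with normexp and slide. Mature neutrophil genes, 20 as reported, were 11 with normexp. Type I interferon genes, 27, were 4 with normexp, 16 with normexp without the 9 w samples and 16 at 2-fold. Platelet genes, 20, were 13 with no filter, 13 with quantile normalization, 0 with normexp and 0 at 2-fold. Erythroid genes, 23, were 14, 4 and 2 with no filter, normexp and 2-fold. B cell genes lower, 17, were 3 with normexp and 4 at 2-fold, and MHC class II genes, 9, were 2 and 0. The cause of these shifts was not tested. The fits with slide as a fixed term, without the 9 w samples, of the 4 arrays with the replicate block, and of normexp with a second change were chosen after seeing the data. Probes near background limit all folds. Bounds and log2 changes there both depend on the background correction, and both may overstate the change. A bound can be smaller than the fold as measured, as for Smyd5 (2.95 against 6.48), or equal to it, as for Blk (2.64). Lcn2, at least 3.95-fold higher by its bound, changed by 0.785 on the log2 scale after normexp. Smyd5, at least 2.95-fold lower by its bound, changed by -0.49 on that scale after normexp. Saa3 changed by 4.76 as reported and by 2.89 after normexp, and Mbl2 by -2.77 and -0.43.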

Other observations

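Outside the lists, 2 genes that glucocorticoids are known to induce were looked up after their values were seen. Fkbp5, a chaperone of steroid receptors, had scaled signals of 38.6 and 38.6 at 0 w and of 123 and 106 at 2 w, a log2 change of 1.57 (SE 0.11), but its other 2 tested probes changed by -0.68 and 1.05 and neither passed the test. Its DBA/2 change exceeded its B6 change by 2.02. Tsc22d3, a leucine zipper protein, changed by 0.55.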
